A study of Caenorhabditis elegans with 4 samples.

Results

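The vitellogenin genes vit-1 to vit-6 of the nematode Caenorhabditis elegans were followed over 4 one-colour Affymetrix C. elegans Genome arrays. A probe set is a group of short oligonucleotides on the array that is read as 1 value. Every probe set that the platform's probe-to-gene table assigned to any of these 6 genes was taken, which gave 10 of the 22548 probe sets left once 77 control probe sets were set aside. The 10 probe sets cover 5 genes: vit-1 and vit-2 have 1 each, vit-4 has 3, vit-5 has 1 and vit-6 has 2, and 2 more are assigned to vit-4 and vit-5 together. No probe set carries the name vit-3, and that gene was not analysed here. In the WBcel235 gene table vit-3 and vit-4 are direct neighbours on the X chromosome. Of the 10 probe sets, 7 (both shared ones among them) bear the _s_ or _x_ suffix that Affymetrix gives where probes may bind several transcripts, and 3 do not: 177065_at for vit-1, 191323_at for vit-2 and 190649_at for vit-6.

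Each array held RNA of wildtype young adult hermaphrodites, 1 array per group. Worms of 3 groups were kept for 24 h without food in the salt solution K-medium at 20 °C with BPA (bisphenol A), DEHP (di(2-ethylhexyl) phthalate) or NP, read here as nonylphenol, each at 1/100 of its median lethal concentration over 24 h. Control worms were untreated per their label, which gives neither a medium nor a feeding state. Exposure, fasting, medium and age therefore cannot be told apart in a comparison with the control. The labelling field names fibroblast cultures, against every other field. All 11 intestine markers and all 12 oocyte markers of the worm were at or above the detection level on all 4 arrays.

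Vitellogenins are large lipid-binding proteins related to the apolipoprotein B family of vertebrates. In the adult hermaphrodite the intestine makes them and secretes them into the body cavity. Oocytes then take them up through the receptor RME-2 as food for the embryo. Their genes are known for adult, hermaphrodite-specific and intestine-specific expression and for very abundant transcripts. The proteins of vit-1 to vit-5 form the larger yolk polypeptides, and that of vit-6 is cut into the smaller ones. The genes vit-3, vit-4 and vit-5 are close copies of each other.

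Vitellogenin probe sets were among the brightest of every array. The vit-6 probe set 173411_s_at ranked 1 in BPA worms, 1 in DEHP worms and 4 in NP worms, against 12 in control worms. The vit-5 probe set 172696_x_at ranked 13, 20 and 2 in BPA, DEHP and NP worms, against 13 in control worms. On the BPA and DEHP arrays the brightest of all 22548 probe sets was thus a vit-6 probe set. The 100 brightest probe sets held 4 vitellogenin probe sets in BPA worms, 7 in DEHP worms, 7 in NP worms and 4 in control worms. The 10 probe sets together made up 0.993% of the summed intensity in BPA worms, 1.02% in DEHP worms and 1.12% in NP worms, against 0.88% in control worms. That share was higher on each exposed array than on the control array, and a constant scaling factor per array does not alter it. The arrays also differ in the shape of their intensities, which such a factor does not remove. Their median intensity was 140 in BPA worms, 127 in DEHP worms and 109 in NP worms, against 141 in control worms. No share of other bright probe sets is given beside it. A rank or a share of intensity orders hybridisation signals and does not measure the amount of each transcript.

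**Figure D1:**
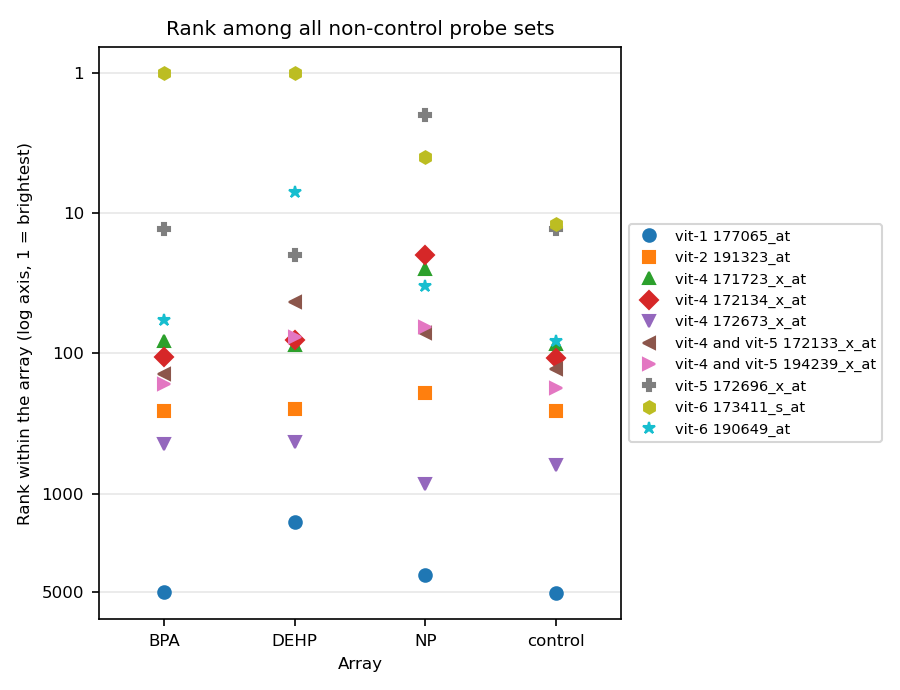
Rank of each vitellogenin probe set (vertical log axis, 1 is the brightest of 22548) on the BPA, DEHP, NP and control arrays, 1 array per group. The 2 vit-6 probe sets and the vit-5 probe set lie within the 82 brightest on every array, while vit-1 moves between rank 1603 in DEHP worms and rank 5113 in control worms.

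The vit-1 gene stood far below its relatives in rank and was the member that differed most between arrays. Its probe set 177065_at had an intensity of 717 in BPA worms, 2197 in DEHP worms and 1029 in NP worms, against 717 in control worms. The DEHP array was high, the NP array was intermediate, and the BPA and control arrays were almost equal. The ranks were 5050, 1603 and 3779 in BPA, DEHP and NP worms, against 5113 in control worms. This probe set bears no _s_ or _x_ suffix, and its sequence was not analysed here.

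Its relative vit-2 differed less between the same arrays. The probe set 191323_at of vit-2 had an intensity of 10409.8 in BPA worms, 10134 in DEHP worms and 13120.3 in NP worms, against 9653 in control worms. The NP array was the highest for vit-2, whereas the DEHP array was the highest for vit-1.

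The vit-4 and vit-5 probe sets were bright, all of the _x_ type, and mostly highest on the NP array. For vit-5, 172696_x_at had an intensity of 25845 in BPA worms, 21331.5 in DEHP worms and 29908 in NP worms, against 23209 in control worms. For vit-4, 171723_x_at had 20358, 17488 and 23409 in BPA, DEHP and NP worms, against 18008 in control worms. Its second probe set 172134_x_at had 18536.5, 17977.5 and 24050.4 in BPA, DEHP and NP worms, against 16836 in control worms. These 3 probe sets were all highest on the NP array, and 2 of the 3 were lowest on the DEHP array.

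The remaining vit-4 probe set ran the other way. Its probe set 172673_x_at had an intensity of 6109 in BPA worms, 6163 in DEHP worms and 3635 in NP worms, against 4450.3 in control worms, so that NP was the lowest of the 4. The probe sets assigned to vit-4 and vit-5 together were higher on DEHP and NP. The first, 172133_x_at, had 16506 in BPA worms, 19537 in DEHP worms and 20779 in NP worms, against 15938 in control worms. The second, 194239_x_at, had 15056, 18139 and 21068.5 in BPA, DEHP and NP worms, against 13398 in control worms. The 5 probe sets of vit-4, or of vit-4 and vit-5, therefore do not give 1 pattern, and their values are uncertain as to the member.

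Both vit-6 probe sets were lowest on the control array. The probe set 173411_s_at had an intensity of 31467 in BPA worms, 29283 in DEHP worms and 27025.5 in NP worms, against 23261.5 in control worms. The unshared 190649_at had 21468 in BPA worms, 23556 in DEHP worms and 22692 in NP worms, against 18075 in control worms. The 2 probe sets differ in which exposed array is highest. Over the 10 members, 6 had their highest value on the NP array, 3 in DEHP worms, 1 in BPA worms and 0 in control worms. The lowest value fell on the control array for 6 members, on the DEHP array for 2, on the BPA array for 1 and on the NP array for 1. Most of the 6 members highest on the NP array are _x_ probe sets of vit-4 or vit-5, which may bind the same transcripts. These counts therefore do not stand for separate genes, and no such count over all probe sets is given beside them.

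**Figure D2:**
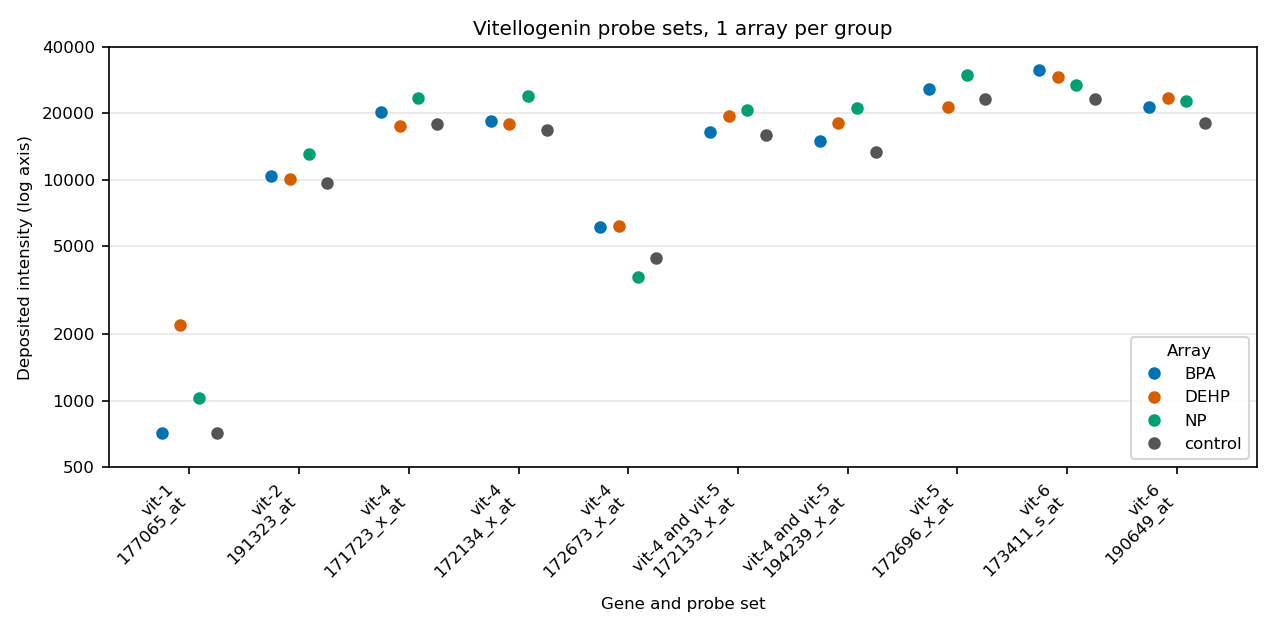
Deposited intensity (vertical log axis) of the 10 vitellogenin probe sets on the BPA, DEHP, NP and control arrays, 1 point per array. vit-1 is the dimmest, with 2197 in DEHP worms against 717 in control worms, and the bright vit-6 probe sets lie above their control value on all 3 exposed arrays.

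Differences from the control are given on the log2 scale relative to the median detected gene of each comparison, a gene being detected if its brighter array reached an intensity of 129 after median scaling. With 1 array per group there was no test, no SD between worms and no replicate check, and 2-fold marks a large difference. In the BPA comparison 2.71% of 8819 detected genes were at least 2-fold from the control, in the DEHP comparison 8.54% of 8915 and in the NP comparison 10.3% of 8940. Among the brightest 2% of genes, 343 in all, these shares were 0.583%, 2.62% and 2.62%. Probe sets of the same gene differed with an SD of 0.29, 0.28 and 0.41 log2 in the BPA, DEHP and NP comparisons, or of 0.15, 0.14 and 0.18 among genes as bright as the brightest 2%. This spread lies within an array and holds nothing of the spread between cultures.

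On the BPA array none of the 10 members was 2-fold from the control. The largest difference was 0.46 for the vit-4 probe set 172673_x_at, and the others ran between 0.0023 for vit-1 and 0.44 for vit-6 (173411_s_at). vit-2 read 0.11 and vit-5 read 0.16. All 10 members lay above 0, beside 73.5% of the brightest genes, although 7 did after quantile normalization or with centring on the brightest genes, and 9 did under loess scaling, under the stricter filter, with the span trend taken out or with uncentred deposited values. The members' median was 0.16, beside 0.11 for the brightest genes and 0 for all detected genes. It was 0.018 after quantile normalization and 0.047 under loess scaling, beside 0.013 and 0.024 for the brightest genes. With median scaling the 343 brightest genes ran from -0.25 to 0.47 between their 5th and 95th percentiles. All 10 vitellogenin values lay inside that range.

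On the DEHP array 1 of 10 members was 2-fold from the control, vit-1, with a relative log2 difference of 1.61, or 3.05-fold higher. Of the 8915 detected genes 2.82% were at least 2-fold higher, and 75 had a larger difference than vit-1. Of 4690 genes at or above an intensity of 613 on the brighter array, the range in which vit-1 lies, 2.52% were at least 2-fold higher. The difference of vit-1 ran from 1.56 to 1.77 over all alternative settings. Relative to vit-2 within the same arrays, vit-1 was higher by 1.55 log2 in DEHP worms, 2.92-fold. A constant scaling factor per array cancels in this difference. Scaling that depends on intensity need not cancel, since vit-2 is far brighter than vit-1. The same difference was -0.11 in BPA worms and 0.078 in NP worms.

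The other 9 members read between -0.13 for vit-5 and 0.46 for the vit-4 probe set 172673_x_at on the DEHP array. The vit-6 probe sets read 0.33 and 0.38, vit-2 read 0.063, and the other vit-4 probe sets read -0.05 and 0.09. The probe sets of vit-4 and vit-5 together read 0.29 and 0.43. The median of the 10 was 0.31, beside -0.013 for the brightest genes, and 8 of 10 lay above 0, beside 46.9% of the brightest genes. Over the 5 genes with 1 probe set each the median was 0.063, and 3 of the 5 lay above 0.

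The detected sperm markers were also higher in DEHP worms, but not on the other 2 exposed arrays. Of 12 sperm markers 11 were measured and 4 were detected, all major sperm protein genes read by _x_ probe sets. Such probe sets may bind several transcripts, so these 4 may not be separate measurements. With only unshared probe sets 0 sperm markers were detected. The summed intensity of the 11 measured sperm markers was 1802 in BPA worms, 7178 in DEHP worms and 1385 in NP worms, against 2053 in control worms. Of the 4 detected genes 3 were at least 2-fold higher on the DEHP array, beside 2.82% of all detected genes. The median of the 4 was 2.00, while the other 7 measured sperm markers were under the detection level in that comparison. On the BPA and NP arrays the 4 had medians of -0.26 and -0.58, where vit-1 read 0.0023 and 0.52. The part of sperm RNA in the vit-1 value was not tested.

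On the NP array none of the 10 members was 2-fold from the control. The values ran from -0.30 for the vit-4 probe set 172673_x_at to 0.65 for 194239_x_at. The value of 194239_x_at was 1.03 without centring on the median gene and 1.01 without the filter on dim genes, past 2-fold in both. vit-1 read 0.52, vit-2 0.44, vit-5 0.36 and vit-6 0.21 and 0.32. The other vit-4 probe sets read 0.37 and 0.51. The median of the 10 was 0.38, beside 0.13 for the brightest genes, and 9 of 10 lay above 0, beside 68.5% of the brightest genes. Over the 5 genes with 1 probe set each the median was 0.37, and all 5 lay above 0. The members' median was 0.18 after quantile normalization and 0.20 under loess scaling, where the brightest genes had medians of -0.042 and -0.048 and 41.7% and 41.4% of them lay above 0. Without centring it was 0.76, beside 0.50 for the brightest genes. The probe set 194239_x_at lay above the 5th to 95th percentile range of the brightest genes, -0.58 to 0.59, and the other 9 lay inside it. The 3 vit-4 probe sets spanned 0.81 log2, against the SD of 0.41 between probe sets of a gene in this comparison, or 0.18 among bright genes.

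The NP array differed from the others in its control probe sets. The ratio of the 3-prime to the 5-prime actin probe set was 1.22 in BPA worms, 1.37 in DEHP worms and 1.88 in NP worms, against 1.19 in control worms. For catalase it was 1.44, 1.82 and 3.38 in BPA, DEHP and NP worms, against 1.63 in control worms. GAPDH had ratios of 0.83, 0.93 and 1.19, against 0.95, and gly-14 had 0.016, 0.097 and 0.47, against 0.24. The ubiquitin ratio was above the control on all 3 exposed arrays, with 8.28, 8.01 and 8.98 against 6.66. With the trend of the differences on gene span taken out, the median of the 10 members on the NP array was 0.50, beside -0.024 for the brightest genes. The part of RNA quality in the vitellogenin values was not tested.

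**Figure D3:**
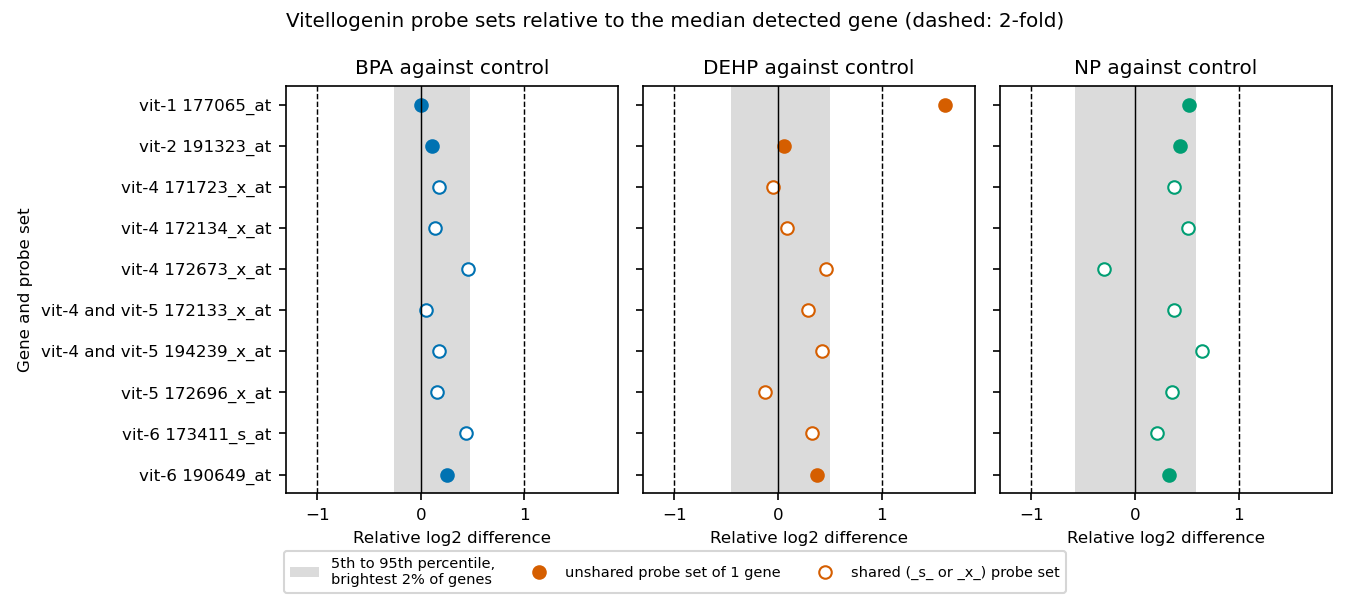
Relative log2 difference from the control (horizontal axis) of the 10 vitellogenin probe sets on the BPA, DEHP and NP arrays, with filled points for unshared probe sets, open points for the _s_ or _x_ type, dashed lines at 2-fold and a grey band from the 5th to the 95th percentile of the brightest 2% of genes. vit-1 at 1.61 in DEHP worms is the only point past a dashed line.

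**Figure D4:**
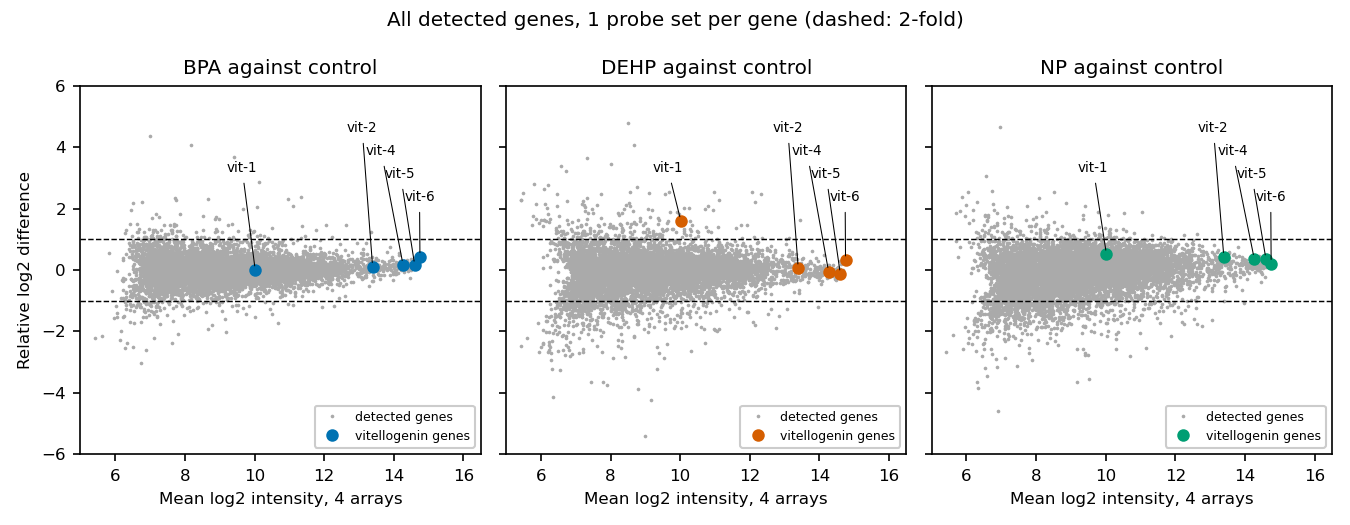
Relative log2 difference from the control (vertical axis) against the mean log2 intensity over the 4 arrays (horizontal axis) for all detected genes, 1 probe set per gene, with the 5 vitellogenin genes marked and dashed lines at 2-fold. vit-2, vit-4, vit-5 and vit-6 lie at the bright end, where differences are small, and vit-1 lies in the middle of the range.

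The exposed arrays were also compared with each other, since all 3 groups had been kept without food for the same time. In BPA against DEHP, 4.94% of 8853 detected genes were 2-fold apart, and of the 10 members 1 was, vit-1, at -1.63 or 3.09-fold lower on the BPA array. In BPA against NP, 8.93% of 8944 detected genes were 2-fold apart and none of the members. The largest member difference there was 0.73 for the vit-4 probe set 172673_x_at, and vit-1 read -0.54. In DEHP against NP, 7.46% of 8886 detected genes were 2-fold apart, and of the members vit-1 was, at 1.10 or 2.15-fold higher on the DEHP array. That value was 0.87 without centring on the median gene and 0.98 with the span trend taken out, so it passes 2-fold only under some settings.

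No member but vit-1 reached 2-fold between exposed arrays. In BPA against NP, vit-2 read -0.35, vit-5 -0.23 and vit-6 0.20 and -0.10. In DEHP against NP, vit-2 read -0.36, vit-5 -0.48 and vit-6 0.13 and 0.06. In BPA against DEHP, vit-2 read 0.03, vit-5 0.26 and vit-6 0.09 and -0.15. The vit-4 probe set 172673_x_at read -0.03 in BPA against DEHP, 0.73 in BPA against NP and 0.77 in DEHP against NP, the last 2 larger than the BPA against NP value of vit-1. The vit-4 probe set 171723_x_at read 0.21, -0.22 and -0.41 in the same comparisons and 172134_x_at read 0.03, -0.40 and -0.41, so the vit-4 probe sets differed in direction against NP.

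The pattern of each gene over the 3 differences from the control was read on its brightest probe set. It was set against 3716 other genes at or above an intensity of 613 on all arrays. The Euclidean distance in log2 units was the measure of likeness. Nearest to vit-1 were the claudin-like gene clc-1 (distance 0.41, with differences of 0.38, 1.46 and 0.58 for BPA, DEHP and NP), C17H12.8 (0.43) and the lysozyme gene lys-1 (0.60). No gene lay within 0.25 of vit-1, whereas 509 did for vit-2, 363 for vit-4, 272 for vit-5 and 156 for vit-6, a radius chosen after the distances were seen. That radius is smaller than the distance of 0.41 to the gene nearest vit-1, so the count of 0 was fixed by the choice. The counts also follow the size of the differences, which was large for vit-1 on the DEHP array and smaller for vit-2. Nearest to vit-2 were the proteasome genes pas-3 and pbs-7 and the heat shock factor binding gene hsb-1, at distances between 0.03 and 0.04. Nearest to vit-4 were crn-3, C47D12.2 and ari-1.4, and nearest to vit-5 were ZK1127.5, C27H6.8 and the splicing factor gene rsp-1. The brightest vit-4 probe set read 0.18, -0.05 and 0.37 for BPA, DEHP and NP. The other vit-4 probe sets read 0.14, 0.09 and 0.51, and 0.46, 0.46 and -0.30. They lie further from the brightest than the named neighbours do, so the vit-4 neighbours belong to that probe set and not to the gene. Nearest to vit-6 were the ABC transporter gene mrp-5 (0.036), the eggshell gene cbd-1 (0.045) and tts-2 (0.054), although the other probe set of cbd-1 read -0.36, -0.10 and 1.17 for BPA, DEHP and NP. The vit-6 neighbours likewise belong to its brightest probe set, which read 0.44, 0.33 and 0.21. The unshared vit-6 probe set read 0.25, 0.38 and 0.32 and lies further from it than these neighbours do. Pearson's r of the log2 levels over the 4 arrays was at least 0.945 for each of the 15 named nearest genes with its member. The genes were picked by nearness on these same arrays, so a high r followed from the choice.

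Regulators of vitellogenin transcription had no 2-fold higher member on any exposed array. Over all detected genes 1.3%, 2.82% and 1.92% were at least 2-fold higher and 1.41%, 5.72% and 8.42% at least 2-fold lower for BPA, DEHP and NP, and the counts of the pathway lists stand beside these shares. Of the 9 listed, 7 were detected in the BPA comparison, 8 in the DEHP comparison and 7 in the NP comparison, with medians of -0.16, -0.25 and -0.76 beside 0 for all detected genes. The homeobox gene ceh-60, an activator of yolk genes in the intestine, had an intensity of 87.3 in BPA worms, 101 in DEHP worms and 204 in NP worms, against 178 in control worms. It was 2-fold lower on the BPA array (-1.03), where its intensity was under the detection level and its other probe set read -0.31. Its partner unc-62, a MEIS-type homeobox gene, read -0.32, -0.015 and -0.55 for BPA, DEHP and NP, and 0.19, -0.95 and -0.30 on its other probe set. The zinc-finger gene pqm-1 had 737, 814 and 490 in BPA, DEHP and NP worms, against 1006 in control worms, and was 2-fold lower on the NP array (-1.04), a call that no member of the list kept without centring on the median gene.

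The other detected regulators were within 2-fold on their brightest probe set. The intestinal GATA factor gene elt-2 read 0.19, -0.33 and -0.76 for BPA, DEHP and NP, and -0.57, -0.60 and -1.44 on its other probe set, which was past 2-fold on the NP array. The FOXO gene daf-16, the target of insulin signalling, read 0.0094, 0.042 and -0.97, with -0.50 to -2.06 on its other 3 probe sets on the NP array. The steroid receptor gene daf-12 read -0.073, -0.30 and -0.85. The gene mab-3, which represses yolk genes in males, was under the floor of 28.3 on all 4 arrays, with intensities of 3.66, 3.49 and 2.34 in BPA, DEHP and NP worms, against 7.40 in control worms.

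Insulin, TORC2 and BMP-like signalling genes had no 2-fold higher member either. Of 13 genes 11, 11 and 12 were detected in the BPA, DEHP and NP comparisons, with medians of -0.24, -0.31 and -0.36. The SMAD gene sma-2 had an intensity of 56.3 in BPA worms, 85.1 in DEHP worms and 152 in NP worms, against 181 in control worms, for relative differences of -1.68, -1.09 and -0.25. The exposed values of sma-2 on the BPA and DEHP arrays lay under the detection level, and its other probe set read -1.69, -3.29 and -2.25, the DEHP value at the floor. The gene sma-10, a membrane protein that promotes BMP-like signalling, was 2-fold lower on the DEHP array (-1.22) and read -0.24 and -0.82 on the BPA and NP arrays, while its dimmer probe set read -0.28, -0.50 and -0.69 for BPA, DEHP and NP. The Schnurri gene sma-9 read -0.45, -0.94 and -0.98 for BPA, DEHP and NP, and -0.36, -0.55 and -1.67 on its other probe set, past 2-fold on the NP array. The co-SMAD gene sma-4 read 0.090, -0.67 and -0.98. On the NP array a dimmer probe set of the ligand gene dbl-1 (-1.65), the receptor gene daf-4 (-1.23) and the TORC2 gene rict-1 (-1.16) was also 2-fold lower, while their brightest probe sets read 0.36, -0.49 and 0.27, genes named after their values were seen.

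Genes of yolk assembly, uptake and breakdown stayed within 2-fold of the control on all 3 exposed arrays by their brightest probe set, apart from 1 uptake gene that was 2-fold higher on the NP array without centring or without the filter on dim genes, and 1 that was 2-fold lower on the BPA array with a mean over each gene's probe sets. The 12 genes of assembly and secretion had medians of 0.062, 0.10 and -0.063 for BPA, DEHP and NP. Among them dsc-4, which encodes the microsomal triglyceride transfer protein, a distant relative of the vitellogenins, read 0.13, 0.066 and -0.60. The chaperone gene hsp-4 read 0.010, 0.14 and 0.58, its relative hsp-3 read 0.19, 0.082 and -0.44, and the GTPase gene rab-1 read -0.17, 0.13 and -0.55.

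The yolk receptor gene rme-2 had an intensity of 8280.1 in BPA worms, 8719 in DEHP worms and 6873 in NP worms, against 6812 in control worms. Its relative differences were 0.28, 0.35 and 0.0086 for BPA, DEHP and NP, all within 2-fold and close to the median gene only on the NP array. The 17 genes of the uptake list had medians of 0.13, 0.28 and -0.15 for BPA, DEHP and NP. The largest positive values on the NP array belonged to egg-3 (0.47, 0.54 and 0.58 for BPA, DEHP and NP), egg-2 (0.26, 0.45 and 0.53) and the chitin synthase gene chs-1 (0.099, 0.28 and 0.69), which are known for fertilisation and the eggshell. The dynamin gene dyn-1 read -0.16, -0.41 and -0.66 for BPA, DEHP and NP, and 0.44, -0.14 and -1.02 on its other probe set, past 2-fold on the NP array. The dimmer probe set of the endosomal GTPase gene rab-7, named after its values were seen, read -2.46 on the BPA array with its intensity under the floor, against -0.11 on the brighter one. The 12 oocyte markers, which share rme-2 and egg-1 with the uptake list, had medians of 0.29, 0.32 and 0.11 and no 2-fold member.

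The 8 measured of 9 breakdown genes had medians of 0.049, -0.0026 and -0.12 for BPA, DEHP and NP. The cathepsin L gene cpl-1, known for yolk processing in embryos, read 0.17, 0.71 and -0.38, and -2.17, 0.25 and 0.27 on a dimmer probe set whose BPA intensity lay under the floor. The aspartic protease gene asp-4 read 0.056, 0.64 and 0.14, and the cathepsin B-like gene cpr-6 read 0.13, 0.60 and 0.074. On the DEHP array cpl-1, asp-4 and cpr-6 were the highest of this list, while asp-1, an intestinal protease gene, read 0.013, -0.29 and -0.39.

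**Figure D5:**
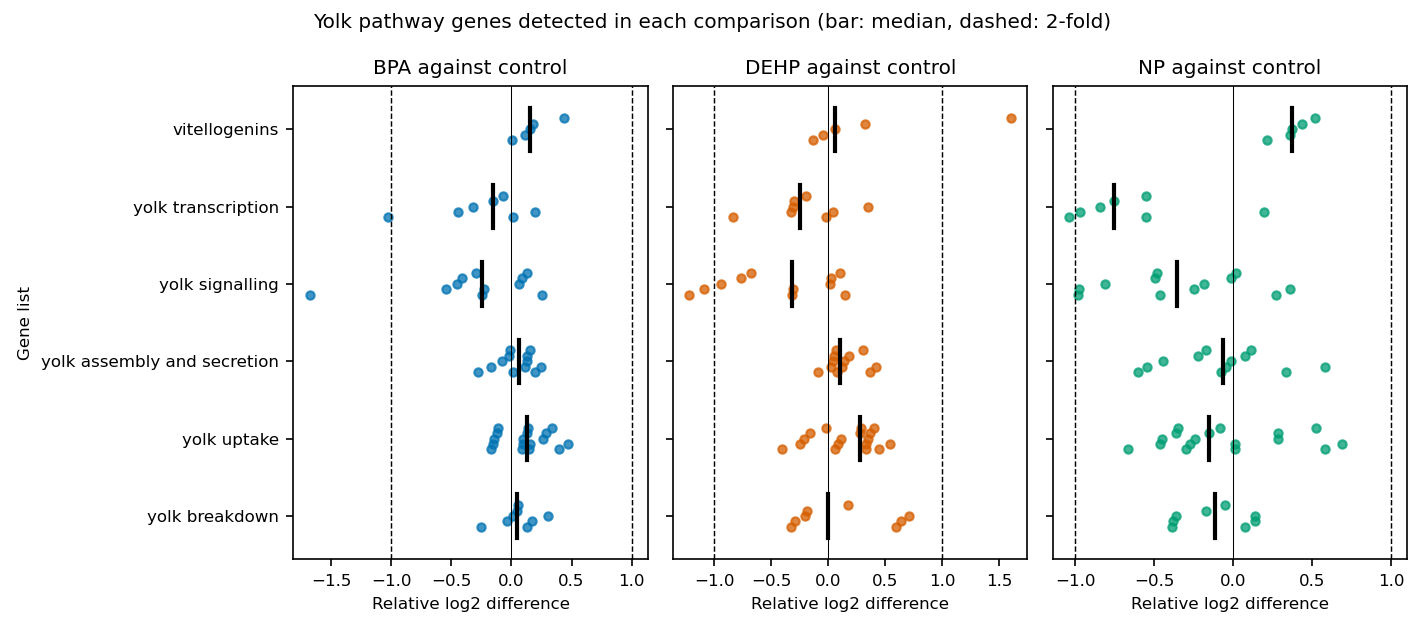
Relative log2 difference from the control (horizontal axis) of the 5 vitellogenin genes and of the detected members of 5 yolk pathway lists on the BPA, DEHP and NP arrays, with 1 point per gene, a bar at each median and dashed lines at 2-fold. On the NP array the vitellogenin median lies at 0.37 and that of the transcription list at -0.76.

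Markers of the intestine, the tissue that expresses the vitellogenin genes, had lower medians than the vitellogenins, and so did muscle and neuron markers. The 11 intestine markers had medians of -0.15, -0.31 and -0.76 for BPA, DEHP and NP. They did not move as 1 group, and some lay above 0. Their values ran from -0.56 to 0.19 (elt-2) for BPA, from -1.09 to 0.55 (spl-1) for DEHP and from -1.48 to 0.16 (mtl-2) for NP. Of the 11, 3 were at least 2-fold lower on the NP array (act-5, ifb-2 and ifc-2), beside 8.42% of all detected genes, and 1 in DEHP worms (ifb-2), beside 5.72%. Without centring on the median gene these counts were 1 (ifc-2) and 0. The 8 muscle markers had medians of -0.28, -0.47 and -0.77, with 0, 2 and 2 at least 2-fold lower, and the 9 neuron markers had medians of -0.36, -0.90 and -1.16, with 0, 3 and 6 at least 2-fold lower, for BPA, DEHP and NP. The summed intensity of the intestine markers was 53395 in BPA worms, 46727 in DEHP worms and 38321 in NP worms, against 56588 in control worms. In RNA of whole worms a smaller share of intestinal RNA and lower expression of the marker genes cannot be told apart. The share of intestine in the vitellogenin values was not tested.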

How the data were processed

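The deposited table holds linear probe set intensity values for 4 arrays, which the authors had scaled: the mean over all probe sets but the lowest and highest 2% was 500.1 on every array, as found from the values. The summary software is not given in the sources used here. Per the labels, total RNA was prepared with an RNeasy kit and biotin-labelled.

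Intensities were taken to log2 and each array was shifted to a common median over 22548 probe sets. The pooled 25th percentile (28.3) served as a floor for dim values. For 17118 genes (current RefSeq symbols) with a probe set of their own the brightest probe set was used. Detection was the pooled median (129), and brightness the pooled 75th percentile (613). Differences were centred on the median detected gene. The members, gene lists and settings were chosen with earlier results of these data known. Named list genes were rme-2, dsc-4, unc-62, ceh-60, pqm-1, elt-2 and mab-3, and up to 4 detected members per list with the largest difference from the control. For each vitellogenin gene the 3 nearest genes were named. The procedure was checked on simulated data. Alternatives covered scaling, centring, floor, filter, choice of probe sets and gene span. Python 3.11.15, pandas 2.3.3 and statsmodels 0.14.6 were used. With 1 array per group, the number of arrays limits the precision. Sequences and promoter motifs of the genes were not analysed here.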

Additional observations from a re-analysis of the deposited data

How the results depend on the processing

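Of 678 values of single vitellogenin probe sets under 12 alternatives, 673 kept their side of 2-fold and moved by no more than the spread between probe sets of a gene, or kept their call. Much of this count was fixed in advance, because most members lie far from 2-fold. Some alternatives also leave bright values as they were or shift all probe sets of a comparison by 1 constant. The number of vitellogenin probe sets at least 2-fold higher on the NP array than on the control array was 0, but 1 without centring on the median gene and 1 without the filter on dim genes. For DEHP against NP it was 1, but 0 without centring, 0 without the filter on dim genes and 0 with the span trend taken out. Over the 3 unshared probe sets the gene median was 0.39 for DEHP against the control, in place of 0.063, and 0.0802 for DEHP against NP, in place of -0.36; fewer probe sets entered. The split of 2-fold genes was 172 higher and 753 lower for NP against the control, but 764 and 318 without centring, and 251 and 510 for DEHP, but 391 and 365. Over the alternatives, 2-fold lower members of the transcription list ran from 0 to 1 for BPA and from 0 to 3 for NP, and those of the signalling list from 0 to 1 for BPA, from 0 to 2 for DEHP and from 0 to 2 for NP. On the NP array 2-fold lower markers ran from 1 to 5 for intestine, from 1 to 4 for muscle and from 2 to 7 for neurons. The marker counts under alternatives and the alternative of deposited values without centring were chosen after seeing the data. No paired analysis was possible because each group had 1 array. Brightness limits what these arrays show: most members, but not vit-1 and the vit-4 probe set 172673_x_at, lie near the top of the scale, and no scanner values were used here that would tell saturated probes.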
